A study of Mus musculus with 108 samples.

Results

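Nonsense-mediated decay (NMD) is the pathway that degrades messenger RNAs on which translation stops too early, and 9 of its factors were followed through single mouse oocytes: Upf1, Upf2, Upf3a, Upf3b, Smg1, Smg8, Smg9, Smg5 and Smg6. The 9 genes were found by matching the Ensembl identifiers of the gene count files to these symbols, 1 identifier each, out of 55573 identifiers in all. RNA was measured in 86 oocytes of 23 female mice, either control or lacking Exosc10 in the oocyte only (cKO). Exosc10 encodes a 3′ to 5′ exoribonuclease that works with the RNA exosome in the nucleus. Oocytes were taken at the germinal vesicle stage (GV, fully grown and arrested before meiotic resumption), after 3 hours of culture in M2 medium (GV3h), or as MII eggs from the oviduct. Of these, 64 were polyA libraries, made from RNA captured on oligo(dT), and 22 were RiboMinus libraries, made with random priming and without selection for a poly(A) tail, at GV and MII.

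The polyA libraries held 15 cKO oocytes of 2 females and 7 control oocytes of 2 females at GV, 11 of 3 and 8 of 3 at GV3h, and 15 of 3 and 8 of 3 at MII. The RiboMinus libraries held 7 cKO oocytes of 2 females and 8 control oocytes of 2 females at GV, and 4 of 2 and 3 of 1 at MII. Each female gave oocytes of 1 stage and 1 genotype, so the female was the replicate. The 3 RiboMinus MII control oocytes came from 1 female, so that in every RiboMinus comparison with them the group and the female cannot be told apart, and that female was assumed to vary like the others. The promoter that drives the deletion, the strain and the age of the females are not given in the sources used here.

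In NMD, the RNA helicase UPF1 is recruited when a ribosome stops, and UPF2 and UPF3 link it to exon junction complexes left downstream by splicing. The SMG1 kinase, held in check by SMG8 and SMG9, then phosphorylates UPF1, and phosphorylated UPF1 is bound by SMG5 and by SMG6, the endonuclease that cuts the RNA. Fully grown oocytes are largely silent in transcription, and during maturation their stored messenger RNAs are degraded or have their poly(A) tails shortened or lengthened.

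Poly(A) tails are added at the 3′ end of a transcript, and oligo(dT) captures RNA by its tail, so 3′ ends are shown for 4 factors whose level differed between GV and MII in polyA libraries: Upf1 and Smg8, which were higher at MII, and Smg9 and Smg5, which were lower in controls. The sequences come from the GENCODE M21 transcripts on GRCm38, which is mm10. Capitals mark the poly(A) signal AATAAA, to which the cleavage and polyadenylation machinery binds. Each is a run of 30 bases of the 3′ untranslated region, read 5′ to 3′ on the gene's own strand.
Upf1 (chr8:70331538-70331567, minus strand): atttgttttaagctttttgtcaccAATAAA
Smg8 (chr11:87077766-87077795, minus strand): tatattgatatttattgtaaaatcAATAAA
Smg9 (chr7:24422731-24422760, plus strand): tcaagacgagggtctgatggttcgAATAAA
Smg5 (chr3:88362290-88362319, plus strand): ctggcagacttgagactcaagcttAATAAA
All 9 factors had AATAAA in the last 100 bases of the transcript used. The signals AATAAA and its variant ATTAAA were searched on the transcript strand, and AATAAA or ATTAAA was found in that window in 78.4% of 19597 protein-coding genes. The U-rich elements TTTTAT and TTTTAAT, searched on the same strand as the letters of cytoplasmic polyadenylation elements, were in the window of 17.9% of genes and in that of 0 of the 9 factors. On the same build the whole genes lie at chr8:70331525-70353278 (Upf1, ENSMUSG00000058301), chr2:5951469-6056703 (Upf2, ENSMUSG00000043241), chr8:13785615-13799193 (Upf3a, ENSMUSG00000038398) and chrX:37091678-37110322 (Upf3b, ENSMUSG00000036572). The kinase complex lies at chr7:118131308-118243670 (Smg1, ENSMUSG00000030655), chr11:87077732-87086774 (Smg8, ENSMUSG00000020495) and chr7:24399619-24422778 (Smg9, ENSMUSG00000002210). Smg5 (ENSMUSG00000001415) is at chr3:88336260-88362338 and Smg6 (ENSMUSG00000038290) at chr11:74925823-75164448, and Smg6 shares 126 exonic bp with Srr and 117 with Gm12333 on the opposite strand. The sequence matches are of letters in 1 annotated end per gene, and which ends the oocytes used was not tested.

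The count tables gave between 4638718 and 8735914 gene counts per polyA oocyte and between 12319658 and 62675760 per RiboMinus oocyte, the deepest being the RiboMinus MII cKO oocyte V1166_1. Exosc10 was at most 8.28 CPM (counts scaled to a common library size) in every cKO oocyte and at least 42.9 CPM in every control oocyte. The 8 oocyte markers (Zp1, Zp2, Zp3, Gdf9, Bmp15, Mos, Ooep and Nlrp5) summed to between 5280 and 24200 CPM. The 12 granulosa and cumulus cell markers summed to between 11.5 and 127 CPM per oocyte, and without Cyp19a1 to at most 54.1 CPM. Their highest group means ran from 0.0202 CPM (Ptx3) and 0.0987 CPM (Tnfaip6) up to 7.13 CPM (Inha), 8.22 CPM (Ptgs2) and 98.9 CPM (Cyp19a1). Spike-in RNA was added to every oocyte, but the gene files used here hold 0 spike-in lines. All levels below are CPM scaled by TMM factors, relative to the other RNAs of a library, so RNA per oocyte cannot be read from them. Scaling by library totals instead shifted the median of all genes by −0.43 in controls and −0.52 in cKO oocytes between polyA GV and MII, by 0.19 and 0.23 in the polyA GV and GV3h genotype comparisons, and by 0.13 and 0.20 in those of RiboMinus GV and MII (log2).

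Per kilobase of transcript, Upf1 was the highest of the 9 factors in polyA GV control oocytes, at 50.8 CPM per kb (female means 49.6 and 51.9), followed by Smg8 at 35.5, Upf3b at 18.8 and Upf2 at 12.6 CPM per kb. Smg6 at 7.50 and Smg1 at 7.14 CPM per kb overlapped in their female means, as did Smg9 at 4.5 and Upf3a at 4.25 CPM per kb. Smg5, the adaptor that binds phosphorylated UPF1, was the lowest, at 2.04 CPM per kb (female means 1.32 and 2.77). In polyA MII controls Upf1 stood at 91.7, Smg8 at 58.0 and Upf3b at 48.2 CPM per kb, the last pair overlapping, and Smg9 and Smg5 at 0.835 and 0.573 CPM per kb, also overlapping. In RiboMinus GV controls Upf1 was again the highest at 127 CPM per kb and Smg5 the lowest at 2.12 CPM per kb. In the 1 RiboMinus MII control female Upf3b, at 45.5 CPM per kb, and Upf1, at 43.3 CPM per kb, were the highest. The order depends on the length used: over the union of a gene's exons Upf3b was 26.7 CPM per kb in that female, so that Upf1, still at 43.3, was the highest in all 5 control groups. On that scale Upf3a in polyA GV controls was 1.49 CPM per kb, beside 1.31 for Smg5.

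**Figure D1:**
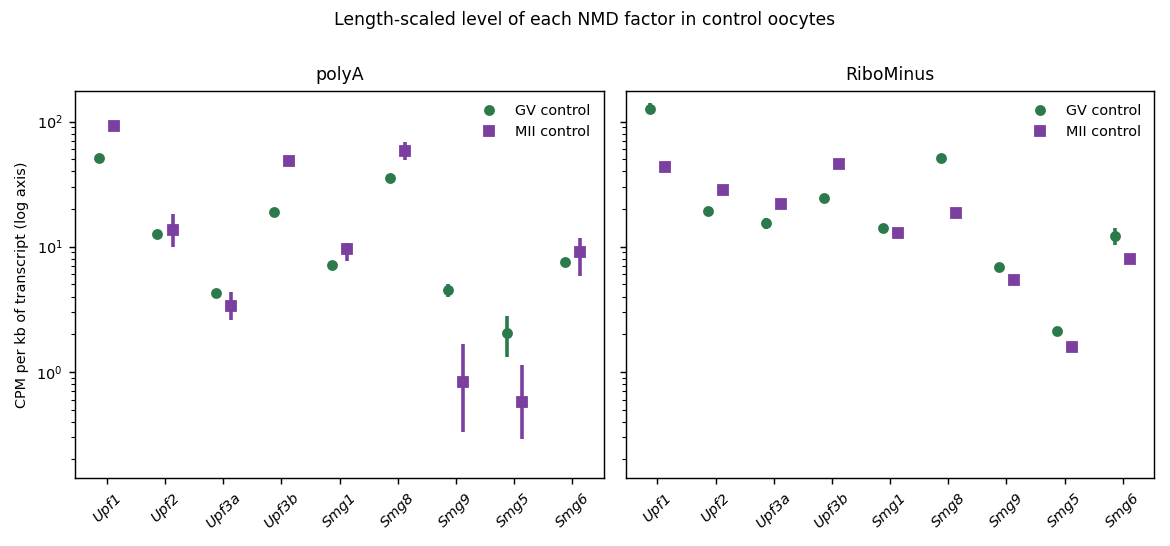
Level of each factor per kilobase of transcript in control oocytes (log axis, CPM per kb), as the mean of female means (points) with the lowest and highest female mean (lines); RiboMinus MII controls are 1 female. Upf1 leads in 3 of the 4 groups, and Smg5 is lowest in all 4.

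The genotype comparisons ask which of the factors differ in oocytes without Exosc10 at the same stage. Smg5 was higher in cKO oocytes in 4 of the 5 comparisons, from 3.11-fold at polyA GV3h to 9.33-fold at polyA MII. Upf3b, the X-linked adaptor to the exon junction complex, was lower in 3: polyA GV3h, polyA MII and RiboMinus MII. Upf1 was 1.97-fold lower and Smg6 1.63-fold lower at polyA GV3h, and Smg8 2.07-fold higher at RiboMinus MII. Upf2, Upf3a, Smg1 and Smg9 passed the test in none of the 5. A factor was called at a Benjamini-Hochberg adjusted p under 0.05 over all genes tested, in edgeR's quasi-likelihood test on counts summed per female.

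**Figure D2:**
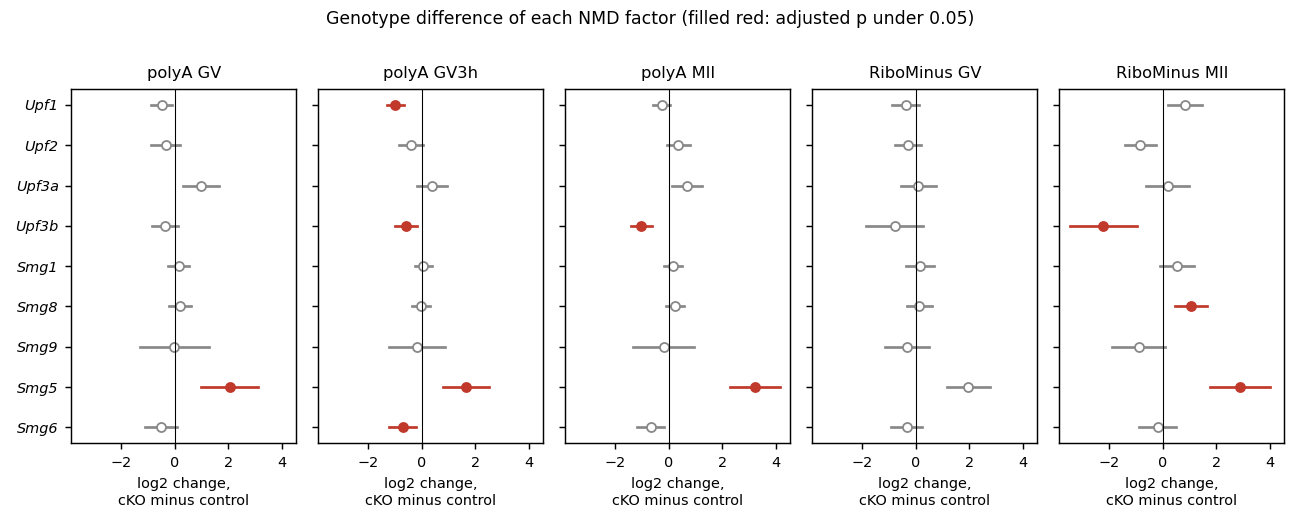
Log2 change of each factor, cKO minus control, in the 5 comparisons (points) with 95% intervals (lines); filled red points passed the test. Smg5 lies to the right of 0 in all 5 panels, and Upf3b to the left, open at polyA GV and RiboMinus GV.

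Upf1, the helicase at the centre of the pathway, had a lowest, median and highest level of 84.8, 146 and 179 CPM in polyA GV3h cKO oocytes and of 232, 257 and 293 CPM in their controls. No cKO oocyte reached the lowest control. The log2 change was −0.98 ± 0.15 (SE), with an edgeR adjusted p of 0.000403, and leaving out any 1 female kept it between −1.03 and −0.89. At polyA GV the female means were 167 and 180 CPM in cKO against 229 and 240 CPM in controls, but the oocytes overlapped and the change of −0.49 did not pass (adjusted p = 0.119; 0.0492 without the MII cKO female V897). At polyA MII the cKO mean of 362 ± 81.9 CPM (SD, n = 3 females) overlapped the control mean of 424 ± 4.58 CPM (n = 3), and the change of −0.26 (adjusted p = 0.245) passed when the cKO female V897 was left out (−0.49, adjusted p = 0.0205). In RiboMinus MII libraries the order was the other way: the 4 cKO oocytes had 395, 251, 406 and 362 CPM and the 3 control oocytes 223, 158 and 220 CPM, without overlap. That change of 0.81 did not pass in edgeR (adjusted p = 0.104), but did in the limma fit of oocytes with the female as a random block (0.84, adjusted p = 0.0173) and in DESeq2 (0.88, adjusted p = 0.0212), which called 24.8% and 20.6% of all genes there. The 3 control oocytes are of 1 female, and the limma fit counts them as partly independent. Exons of Upf1 overlap those of Cers1 on the opposite strand over 68 bp, or 1.47% of its exonic bases, and whether counting used strand is not given in the sources used here.

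Of the adaptors, Upf3b showed the clearest separation. At polyA MII its lowest, median and highest levels were 45.4, 59.6 and 72.8 CPM in cKO oocytes and 82.8, 107 and 150 CPM in controls. Every cKO oocyte lay below every control oocyte, and the log2 change was −1.02 ± 0.19 (adjusted p = 0.00175). At polyA GV3h the female means were 29.8, 29.9 and 33 CPM against 40.3, 42.8 and 49.7 CPM, with a change of −0.59 ± 0.19 (adjusted p = 0.0305); the call was lost on leaving out any 1 of the 6 GV3h females or the polyA GV control female V889 (−0.65 to −0.49), with library totals (−0.36) and with no filter on low counts (−0.54). In RiboMinus GV libraries cKO oocytes spanned 28.3 to 45.9 CPM and controls 49.8 to 66.3 CPM, which did not overlap, but the change of −0.78 did not pass (adjusted p = 0.48). The 4 RiboMinus MII cKO oocytes split by female, with 33.6 and 44.8 CPM in V1166 and 11.3 and 10.1 CPM in V1167, against 117, 118 and 85.4 CPM in the 3 controls. Their change was −2.22 ± 0.55 (adjusted p = 0.0466). That call was lost on leaving out 1 GV female at a time (4 of 4 females, with changes of −2.22 to −2.19) or oocyte V1166_1 (−2.02), with library totals (−2.06) and with DESeq2 size factors (−2.15). The size rests on which cKO female is kept, at −3.34 without V1166 and −1.59 without V1167, both still past the threshold.

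Upf3a, the autosomal paralogue of Upf3b, lay the other way in all 5 comparisons without passing in any. At polyA GV its levels were 12.3, 17.3 and 28.0 CPM (lowest, median, highest) in cKO and 6.79, 8.37 and 13.2 CPM in control oocytes, where only the highest control exceeded the lowest cKO value. The log2 change of 0.99 had an adjusted p of 0.0686, and the limma fit of oocytes with the female as a random block called it at 1.06 (adjusted p = 0.00328; 0.00984 by DESeq2), and it also passed with library totals (1.18) and the stricter filter (1.03). In polyA MII eggs, Upf3b fell while Upf3a changed by 0.68 (adjusted p = 0.081; 0.0491 by DESeq2). Upf2, which joins UPF1 to UPF3, had changes between −0.83 at RiboMinus MII (adjusted p = 0.0774; 0.0379 by DESeq2) and 0.36 at polyA MII (adjusted p = 0.235). Its polyA GV cKO females stood apart from each other, at 41.6 and 65.3 CPM, against 62.3 and 67.7 CPM in controls.

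In the kinase complex, Smg1 changed by 0.07 to 0.16 in the 3 polyA comparisons, with 95% intervals that lay between −0.26 and 0.55. Smg8 changed by −0.02 to 0.24 in the same comparisons, within −0.35 and 0.62. Both intervals leave out a 2-fold difference in either direction. At RiboMinus MII, Smg1 was 336, 312, 274 and 292 CPM in cKO oocytes and 210.1, 184 and 206 CPM in the controls, also without overlap. Its change of 0.54 did not pass (adjusted p = 0.244), but did in the limma block fit (0.61, adjusted p = 0.0289). In the same libraries Smg8 was 148, 88.2, 109 and 139 CPM in cKO oocytes and 63.6, 59.3 and 55.9 CPM in the controls, without overlap. Its change of 1.05 ± 0.26 passed (adjusted p = 0.0458), but not without oocyte V1166_1 (0.76), nor without either RiboMinus GV control female (1.05 and 1.07), nor in the fit of these 2 groups alone (1.13). Smg9, the partner of SMG8, had wide intervals: its polyA genotype changes were −0.19 to −0.01, with intervals reaching from −1.32 to 1.26. Its cKO females at GV3h differed among themselves, at 5.16, 8.13 and 15.8 CPM.

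Smg5 gave the largest genotype difference of the 9. At polyA GV the lowest, median and highest levels were 29.0, 36.8 and 61.3 CPM in cKO oocytes and 5.36, 6.33 and 14.5 CPM in controls. At GV3h they were 23.6, 40.3 and 48.1 CPM against 7.21, 10.7 and 16.5 CPM. In both stages every cKO oocyte was above every control oocyte. The changes were 2.04 ± 0.49 (adjusted p = 0.023) and 1.64 ± 0.40 (adjusted p = 0.00767). With only 2 control females at GV, the GV call was lost without V856 (2.65) and without V889 (1.61), and in the fit of these 2 groups alone (2.02).

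At polyA MII, Smg5 was 3.04, 24.6 and 42.6 CPM in cKO eggs and 0, 1.93 and 12.4 CPM in control eggs. The ranges overlapped through the lowest cKO egg, and the female means did not, at 21.5 to 32.6 CPM against 1.29 to 5.04 CPM. The change was 3.22 ± 0.44 (adjusted p = 0.000203), 4.28 without the control female V853 and 4.24 in the limma block fit. In RiboMinus GV libraries the cKO females differed, at 22.0 CPM in V1126 and 50.9 CPM in V1131, against 9.23 and 9.67 CPM in controls, and the change of 1.96 did not pass (adjusted p = 0.0979). It passed without V1126 (2.38), in DESeq2 (1.99), with no filter (1.96) and in the limma block fit (1.83). At RiboMinus MII the cKO oocytes had 39.7, 98.7, 64.5 and 48.8 CPM and the controls 5.71, 5.97 and 9.29 CPM. The change was 2.89 ± 0.49 (adjusted p = 0.0192), lost without either RiboMinus GV control female (2.89 and 2.91).

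Smg6, the endonuclease, moved less and downward. At polyA GV3h its levels were 16.7, 31.4 and 34.9 CPM in cKO and 37.1, 42.0 and 55 CPM in control oocytes, without overlap. The change of −0.70 ± 0.23 passed (adjusted p = 0.0376), but not without any 1 of the 6 GV3h females or either GV control female (−0.79 to −0.58), nor with library totals (−0.48). At polyA GV and MII the changes were −0.52 (adjusted p = 0.283) and −0.67 (adjusted p = 0.0553). The MII change passed in DESeq2 (−0.71), with DESeq2 size factors (−0.71), with the stricter filter (−0.68), and without the cKO female V897 (−0.89) or the control female V836 (−0.90). The 2 factors that bind phosphorylated UPF1 therefore lay on opposite sides of 0 in all 5 comparisons.

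**Figure D3:**
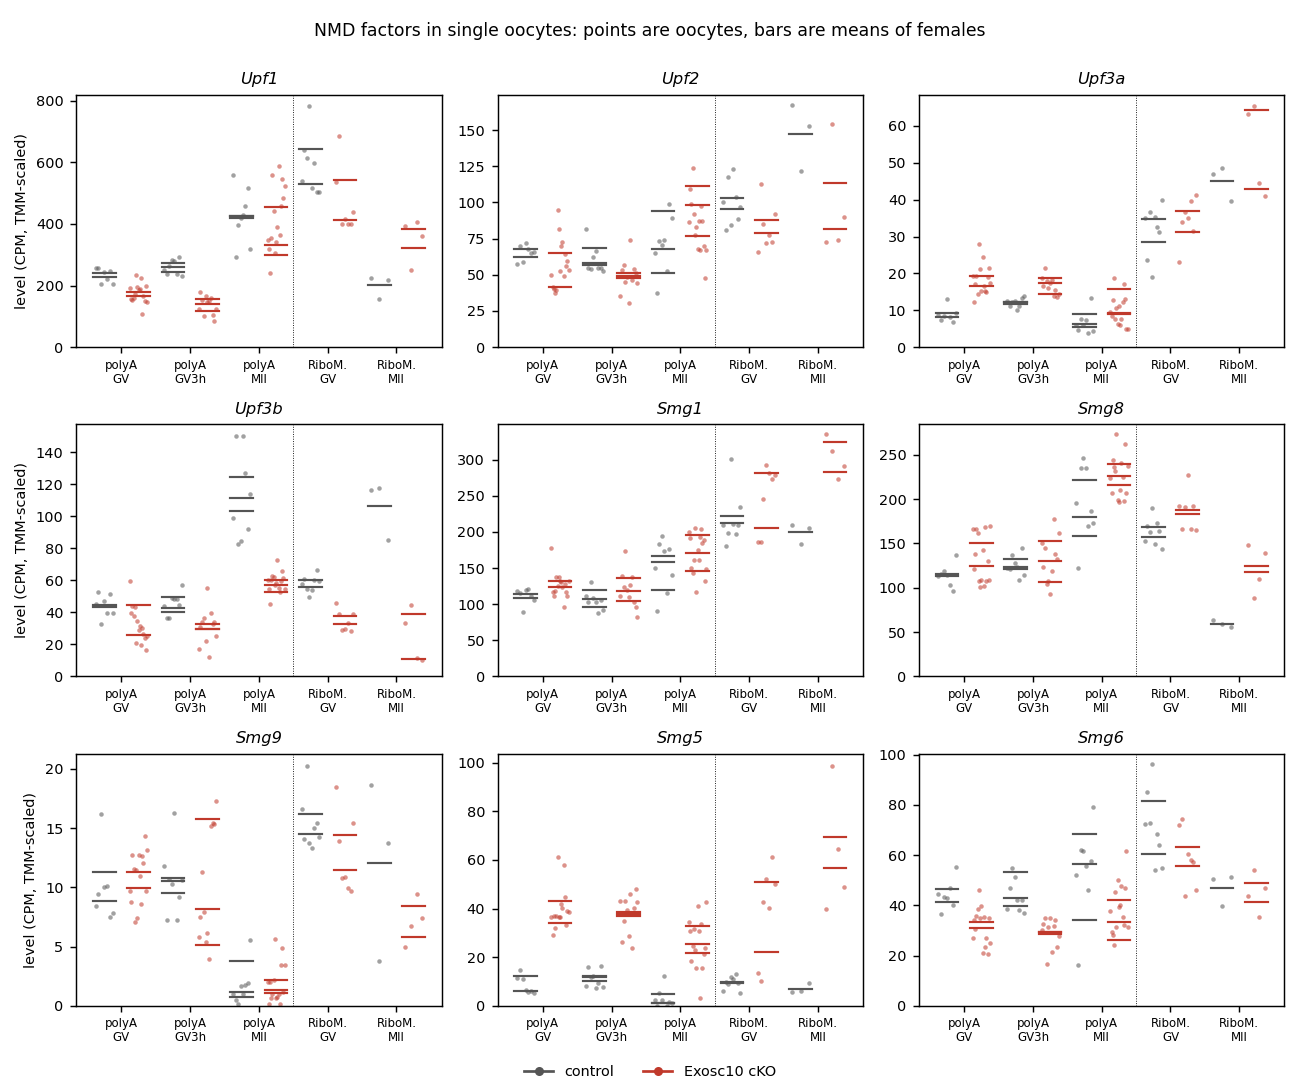
Level of each factor (CPM) in every oocyte (points) with the mean of each female (bars), control in grey and cKO in red, for polyA libraries left and RiboMinus libraries right of the dotted line. Female means of Smg5 are above those of the controls in every cKO group, and Upf3b in polyA MII eggs is split cleanly by genotype.

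Against all genes, these counts read as follows. At polyA GV 1 factor was called higher (Smg5) and 0 lower, where 3.47% of the 19242 genes tested were called higher and 3.91% lower. At GV3h it was 1 higher and 3 lower, against 12.5% and 12.7% of genes. At polyA MII it was 1 higher and 1 lower, against 11.9% and 6.99%. At RiboMinus MII it was 2 higher and 1 lower, against 3.61% and 3.69% of 25425 genes. At RiboMinus GV edgeR called 0 factors, against 0.0275% of genes higher and 0.00393% lower; 1 factor, Smg5, had an unadjusted p under 0.05 there, and DESeq2 and the limma block fit each called 1, where 14.7% of all genes had such a p and 6.19% and 8.32% were called by these tools. In the other genotype comparisons DESeq2 called 14.2% (polyA GV), 29.6% (GV3h), 24.7% (polyA MII) and 20.6% (RiboMinus MII) of genes, and the limma block fit 20.1%, 33.4%, 22.4% and 24.8%. The median change of the 9 factors lay between −0.29 and 0.19 over the 5 comparisons, and that of all genes between 0.04 and 0.25. With library totals the higher share of all calls became 74.2% in place of 47.0% at polyA GV, 70.5% in place of 49.5% after culture, and 65.9% in place of 49.5% at RiboMinus MII.

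The stage comparisons ask how the factors differ between GV oocytes and MII eggs. In polyA libraries of controls, Upf3b was 2.65-fold, Upf1 1.87-fold, Smg8 1.70-fold and Smg1 1.39-fold higher at MII, and Smg9 was 5.31-fold and Smg5 3.16-fold lower. In cKO oocytes Upf1, Smg8, Smg1, Upf3b and Upf2 were higher and Smg9 was lower. Smg6 and Upf3a passed in neither genotype in edgeR. The Upf3a change in cKO oocytes, −0.62 (adjusted p = 0.0891), passed in the limma block fit (−0.86, adjusted p = 0.000845), with library totals (−1.14) and without the MII female V842 (−0.90). The limma block fit called 51.4% of all genes in controls and 59.5% in cKO oocytes. Among all genes, 16.8% were called higher and 25.7% lower in controls, and 18.1% and 26.6% in cKO oocytes. The summed granulosa and cumulus markers also differed between these stages, with medians of 46.8 CPM at GV and 95.4 CPM at MII in controls and of 37.9 and 81.4 CPM in cKO oocytes. Without Cyp19a1 the medians of the sum were 3.62 and 0.813 CPM in controls and 11.4 and 2.78 CPM in cKO oocytes. In RiboMinus libraries that sum had medians of 11.4 CPM at GV and 6.62 CPM at MII in controls. In RiboMinus cKO oocytes they were 8.39 and 19.7 CPM. Whether these markers bear on the differences in the factors was not tested.

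Upf1 went from 204, 244 and 258 CPM (lowest, median, highest) in polyA GV controls to 293, 425 and 560 CPM in MII controls, without overlap. The log2 change was 0.90 ± 0.17 (adjusted p = 0.000502), and in cKO oocytes 1.13 ± 0.17 (adjusted p = 7.13e-05). Upf3b rose from female means of 43.7 and 44.5 CPM to 103, 111 and 125 CPM in controls, a change of 1.41 ± 0.22 (adjusted p = 6.75e-05). In cKO oocytes its change was 0.76 ± 0.21 (adjusted p = 0.00838), which failed without the GV female V888 (0.40), in the fit of these 2 groups alone (0.77) and with library totals (0.23). Smg8 changed by 0.76 ± 0.18 in controls and 0.79 ± 0.18 in cKO oocytes (adjusted p = 0.00263 and 0.002). Library totals took these to 0.33 and 0.27, short of the threshold.

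Smg1 rose by less, 0.47 ± 0.17 in controls and 0.48 ± 0.17 in cKO oocytes (adjusted p = 0.0376 and 0.0322), and with library totals its change was 0.04 in controls and turned to −0.04 in cKO oocytes. The call was also lost with no filter and in the fit of the compared groups alone in both genotypes, in controls without V951, V856, V889, V853 or V896 (0.37 to 0.56), and in cKO oocytes without V857, V888, V841 or V897 (0.39 to 0.55). Upf2 changed by 0.88 ± 0.23 in cKO oocytes (adjusted p = 0.00604), and by 0.59 without the GV female V857 and 0.36 with library totals, both past the threshold no longer. In controls its change was 0.18 (adjusted p = 0.564).

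Smg9 went the other way. In polyA controls it went from 7.53, 9.39 and 16.2 CPM at GV to 0.14, 1.31 and 5.58 CPM at MII, and in cKO oocytes from 7.03, 11.5 and 14.4 CPM to 0.15, 1.19 and 5.61 CPM. In both genotypes every GV oocyte was above every MII egg. The changes were −2.41 ± 0.57 (adjusted p = 0.00266) and −2.59 ± 0.56 (adjusted p = 0.00134); without the control MII female V896 the first was −3.38. The 2 regulatory subunits of the kinase complex thus had opposite polyA differences between stages, SMG8's RNA higher and SMG9's lower at MII. Smg5 fell in controls from female means of 12.3 and 5.88 CPM to 1.29, 5.04 and 1.32 CPM, by −1.66 ± 0.45 (adjusted p = 0.00731). That call was lost without the GV female V856 (−1.07), in the fit of these 2 groups alone (−1.70) and with oocytes as replicates (−1.45), and the value was −2.72 without the MII female V853 and −2.73 in the limma block fit. In cKO oocytes the change was −0.48 (adjusted p = 0.387).

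The 3 hours of culture left no factor called. Between polyA GV and GV3h, edgeR, DESeq2 and the limma block fit each called 0 of the 9 in both genotypes. None had an unadjusted p under 0.05 in edgeR (2.21% of all genes in controls and 1.94% in cKO oocytes). Of all genes, edgeR called 0.0% in either genotype, and DESeq2 called 0.0832% in controls and 0.0883% in cKO oocytes. The changes were −0.09 to 0.47 in controls and −0.34 to −0.06 in cKO oocytes.

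In RiboMinus libraries Upf1 and Smg8 were lower at MII. Upf1 went from 503, 570 and 784 CPM in the 8 GV control oocytes to 158, 220 and 223 CPM in the 3 MII controls, and Smg8 from 144, 163 and 190 CPM to 55.9, 59.3 and 63.6 CPM. No MII oocyte reached the lowest GV oocyte. The changes were −1.55 ± 0.29 and −1.47 ± 0.26, each with an adjusted p of 0.0905, so edgeR called 0 of the 9 factors. It called 0.00787% of all genes higher and 0.0% lower. Those 2 factors had an unadjusted p under 0.05, as did 15.1% of all genes, and DESeq2 and the limma block fit each called 2 factors and 6.08% and 7.0% of all genes. Upf3b lay the other way, with 85.4, 117 and 118 CPM in the MII controls above all GV controls (49.8 to 66.3 CPM). Its change of 0.85 did not pass (adjusted p = 0.505), nor did that of Upf2, 0.56 (adjusted p = 0.341). In cKO oocytes Upf1 changed by −0.36 and Smg8 by −0.56, and edgeR and DESeq2 called 0 factors (2 at an unadjusted p under 0.05, Smg8 and Smg9; 2 by the limma block fit, Smg8 and Upf3a), against 0.61% of genes higher and 1.71% lower in edgeR, 20.3% at an unadjusted p under 0.05, 11.5% in DESeq2 and 19.9% in the limma block fit.

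The change from GV to MII was then compared between library types in 1 fit of all 10 groups. In controls, the polyA change exceeded the RiboMinus change by 2.62 ± 0.33 for Upf1 (adjusted p = 4.71e-06) and by 2.39 ± 0.32 for Smg8 (adjusted p = 8.4e-06). In cKO oocytes the excess was 1.68 ± 0.28 for Upf1 (adjusted p = 0.000153) and 1.52 ± 0.27 for Smg8 (adjusted p = 0.000284). These 4 values passed under every alternative tried, from 2.08 to 2.74 for Upf1 and 1.86 to 2.49 for Smg8 in controls, and from 0.95 to 1.92 and 0.81 to 1.81 in cKO oocytes. The control side of the RiboMinus data rests on 1 MII female.

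In cKO oocytes the same excess passed for Upf3b, at 1.52 ± 0.48 (adjusted p = 0.0257), and for Upf2, at 1.02 ± 0.33 (adjusted p = 0.0304). Without oocyte V1166_1 they were 1.32 and 0.61 and passed no longer, and without the female V1166 Upf3b was 2.67. Upf3b also failed without the females V1126, V1167, V888 or V897 (0.90 to 1.45), with library totals (0.85), with DESeq2 size factors (1.32) and in the fit of the compared groups alone (1.45). Upf2 also failed without V1126, V1167, V857 or V842 (0.72 to 0.95) and under 6 of the other settings (0.33 to 0.94). Smg9 had the most negative values, −1.91 in controls (adjusted p = 0.119) and −1.50 in cKO oocytes (adjusted p = 0.185). Both passed in the limma block fit (−2.19 and −1.94, adjusted p = 0.01 and 0.0072) and with library totals (−2.43 and −2.26), and the control value also without the MII female V896 (−2.89). The limma block fit further called Smg1 (0.71, adjusted p = 0.0203) and Smg6 (0.94, adjusted p = 0.0245) in controls, and Upf3a (−1.28, adjusted p = 0.000464), Smg5 (−1.27, adjusted p = 0.036) and Smg6 (0.76, adjusted p = 0.0392) in cKO oocytes. Upf3a in cKO oocytes, −1.04 in edgeR (adjusted p = 0.0749), also passed in DESeq2 (−1.22), with DESeq2 size factors (−1.22), library totals (−1.72) and the stricter filter (−1.14), and without V1167 or V842 (both −1.29). Smg1 and Smg6 in controls, 0.75 and 1.07 in edgeR (adjusted p = 0.0871 and 0.0884), also passed with the stricter filter and without V836 (0.87 and 1.30), and Smg6 in DESeq2 (1.03). The Smg5 value in controls went from −1.08 to −2.13 without V853 and then passed (adjusted p = 0.00749). Of all 24777 genes tested, 22.8% were called in controls and 20.7% in cKO oocytes, against 2 and 4 of the 9 factors. DESeq2 called 27.6% and 24.9% of genes and the limma block fit 34.2% and 37.7%. With library totals the higher share of all calls in these comparisons went from 47.7% to 28.2% and from 55.8% to 20.7%, in the polyA stage comparisons to 21.4% from 39.5% (control) and to 20.0% from 40.5% (cKO), and in the polyA interaction of stage and genotype from 81.8% to 68.9%. It moved the median of all genes by −0.32 in the control and −0.70 in the cKO comparison of library types, and DESeq2 size factors moved the latter by −0.19.

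**Figure D4:**
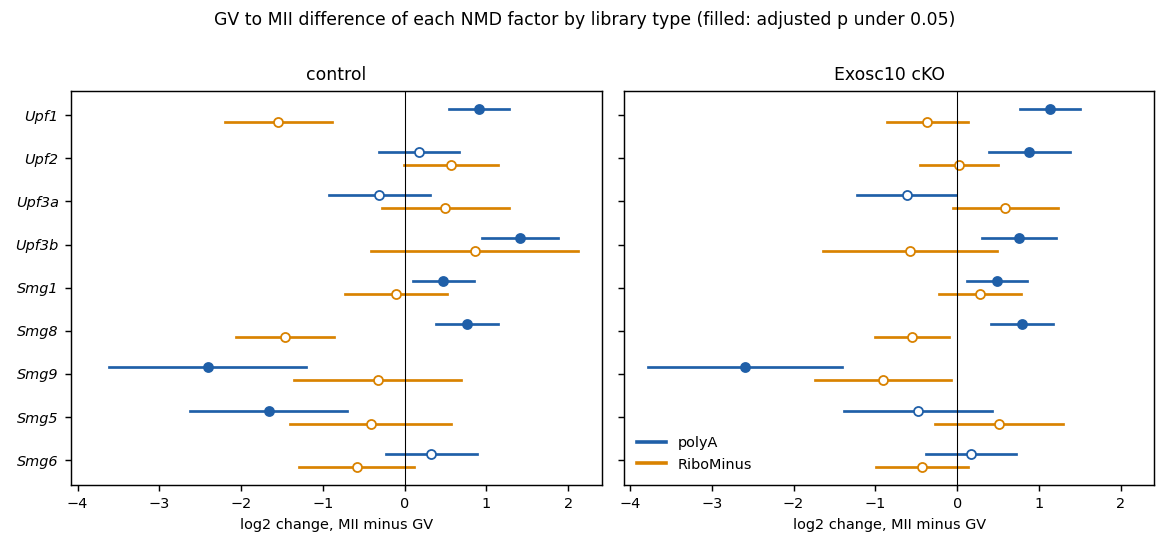
Log2 change from GV to MII of each factor in polyA (blue) and RiboMinus (orange) libraries of control and cKO oocytes, with 95% intervals; filled points passed the test. For Upf1 and Smg8 the polyA points lie above 0 and the RiboMinus points below it in both genotypes.

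Whether the stage change depended on genotype was tested as an interaction. No factor passed in edgeR in either library type, where 1.94% of all genes did in polyA and 0.0% in RiboMinus libraries. At an unadjusted p under 0.05, 2 factors were counted in each, beside 16.0% and 14.2% of all genes: Upf2 (0.70) and Upf3b (−0.65) in polyA, and Upf1 (1.18) and Smg8 (0.91) in RiboMinus libraries. DESeq2 called 0 and 1 and the limma block fit 0 and 2, the latter Upf1 (1.18) and Upf3b (−1.56). Over all genes these tools called 5.83% and 4.43% (DESeq2) and 4.82% and 4.36% (limma). The polyA value of Upf3b passed without the cKO GV female V888 (adjusted p = 0.031). The genotype effect on Smg5 therefore cannot be said to differ between GV and MII: the difference was 1.18 in polyA libraries, with a 95% interval from −0.16 to 2.52, though it passed without the control MII female V853 (2.24).

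Ordered over the 6 polyA groups, Upf1 ran from MII controls through MII cKO, GV3h control, GV control and GV cKO to GV3h cKO oocytes, and only the first pair of neighbours overlapped in their female means. Smg5 ran from GV cKO through GV3h cKO, MII cKO, GV3h control and GV control to MII control oocytes, with overlap between the first pair and between the GV3h and GV controls. Upf3b was highest in MII controls, then MII cKO, and its other 4 groups, between 30.9 and 44.2 CPM on average, each overlapped their neighbour. For Smg9 the 4 GV and GV3h groups overlapped in turn at 9.69 to 10.6 CPM, above both MII groups at 1.54 and 1.87 CPM. Smg6 and Upf3a each had 1 pair of neighbours that did not overlap, GV cKO above GV3h cKO for Smg6 and GV3h cKO above GV3h control for Upf3a. Smg8 had 2, MII control above GV cKO and GV3h control above GV control, and Upf2 and Smg1 overlapped at every step. Over the 4 RiboMinus groups, Upf1 and Upf3b ran in different orders. Upf1 went from GV control (587 CPM) and GV cKO (478 CPM), which overlapped, to MII cKO (353 CPM) and MII control (200.2 CPM). Upf3b went from MII control (107 CPM) through GV control (57.8 CPM) to GV cKO (35.2 CPM) and MII cKO (24.9 CPM), the last pair overlapping. Smg5 was higher in both cKO groups (62.9 CPM at MII and 36.4 CPM at GV) than in GV and MII controls (9.45 and 6.99 CPM), with no overlap of female means between neighbours.

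The polyA profiles over the 16 females were also matched to those of other genes, as a description in which stage and genotype are shared by all points. Upf1 was nearest to Actn4 (Pearson r = 0.987), Upf3b to Hsp90aa1 (0.980), Smg9 to Naa80 (0.963) and Smg5 to Hgh1 (0.953). Smg8 was nearest to Secisbp2 (0.951), Smg1 to Zfp318 (0.948), Upf2 to Exoc4 (0.915), Upf3a to Mbd1 (0.908) and Smg6 to Akap9 (0.902). Among the factors themselves the highest r was that of Upf1 with Upf3b (0.876) and the lowest that of Upf3a with Upf3b (−0.847), so the paralogues ran opposite to each other over the females.

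Another 31 genes of the pathway give the setting. In cKO against control oocytes, polyA libraries had 3 called higher and 1 lower at GV, 8 higher and 6 lower after culture, and 7 higher and 1 lower at MII. RiboMinus libraries had 0 called at GV and 2 higher and 2 lower at MII. Of all genes, 3.47% were called higher and 3.91% lower at polyA GV, 12.5% and 12.7% after culture, 11.9% and 6.99% in polyA MII eggs, and 3.61% and 3.69% in those of RiboMinus libraries. At RiboMinus GV, 5 had an unadjusted p under 0.05 in edgeR, and DESeq2 and the limma block fit each called 3, beside 14.7%, 6.19% and 8.32% of all genes. Their median change lay between −0.06 and 0.25. Those with the largest called rises at polyA GV, GV3h and RiboMinus MII were Pabpc1, the cytoplasmic poly(A)-binding protein, and Ncbp1, the large subunit of the nuclear cap-binding complex. Pabpc1 averaged 44.7 ± 10.8 CPM (SD, n = 2 females) without Exosc10 and 6.07 ± 3.27 CPM (n = 2) with it in polyA libraries of GV oocytes. Its changes were 2.83 ± 0.51 at polyA GV, 3.20 ± 0.43 after culture, 1.83 ± 0.42 at polyA MII and 1.91 ± 0.49 at RiboMinus MII (adjusted p from 0.000164 at GV3h to 0.0498 at RiboMinus MII), and its value of 2.42 at RiboMinus GV did not pass (adjusted p = 0.0803). Ncbp1 changed by 2.11 ± 0.53, 2.67 ± 0.45 and 4.03 ± 0.79 at polyA GV, GV3h and RiboMinus MII (adjusted p = 0.0274, 0.000711 and 0.0265). Its values at polyA MII, 0.63 (adjusted p = 0.356), and RiboMinus GV, 2.04 (adjusted p = 0.153), did not pass.

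The decapping and exon junction genes were mixed. Of the 9 exon junction genes 3 were called higher and 1 lower at GV3h (12.5% and 12.7% of all genes). At polyA MII it was 2 higher and 1 lower (11.9% and 6.99%), and none was called in the other genotype comparisons. Of the 6 decay genes 1 was called higher and 1 lower at polyA GV (3.47% and 3.91% of all genes), and 1 higher and 3 lower at GV3h. It was 1 higher at polyA MII and 1 lower at RiboMinus MII (3.69% of all genes lower). The 1 that was higher each time was Pnrc2, a decapping coactivator named here after its values were seen (1.73, 2.13 and 1.16, adjusted p = 0.0175, 0.000389 and 0.0212). Dcp2, the decapping enzyme, was lower by −0.83 ± 0.17 in polyA GV, −0.96 ± 0.14 in GV3h and −1.87 ± 0.28 in RiboMinus MII oocytes (adjusted p = 0.0127, 0.000307 and 0.0144). At polyA MII and RiboMinus GV its changes of −0.31 and −0.82 did not pass (adjusted p = 0.139 and 0.192). Its activator Dcp1a was lower at GV3h by −1 ± 0.16 (adjusted p = 0.000538) and passed in no other comparison, with −0.55 at polyA GV, −0.33 at polyA MII, −0.49 at RiboMinus GV and 0.97, the other way, at RiboMinus MII (adjusted p = 0.0959). Magohb, of the exon junction core, was lower at GV3h by −1.34 ± 0.32 and at polyA MII by −1.07 ± 0.32 (adjusted p = 0.00681 and 0.0276), while its partner Casc3 was higher by 1.66 ± 0.34 and 1.43 ± 0.34 (adjusted p = 0.00228 and 0.00953). In the other comparisons Magohb lay between −1.56 and −0.59 and Casc3 between 0.73 and 2.10 without passing. Stau2, a double-stranded RNA-binding protein of Staufen-mediated decay, was lower at RiboMinus MII by −1.18 ± 0.26 (adjusted p = 0.0357), and its other values, −0.47 to −0.24, did not pass.

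Between polyA GV and MII controls, 6 of the 31 were called higher and 10 lower (16.8% and 25.7% of all genes), with a median of −0.30 beside −0.26 for all genes, and the 9 exon junction genes split into 4 higher and 5 lower. Magoh and Magohb rose by 1.87 ± 0.20 and 1.91 ± 0.38 (adjusted p = 1.32e-06 and 0.000617). Ruvbl2, an ATPase of the R2TP complex that helps assemble SMG1, went from 221 to 26.2 CPM, a change of −3.03 ± 0.17 (adjusted p = 2.01e-09). Dhx34, a helicase that joins UPF1 to SMG1, changed by −2.38 ± 0.50 (adjusted p = 0.00105). In RiboMinus controls edgeR called 0 of the 31 (10 at an unadjusted p under 0.05, 5 by DESeq2 and 4 by the limma block fit, beside 15.1%, 6.08% and 7.0% of all genes), and Magoh and Ruvbl2 averaged 131 and 124 CPM at GV and 70.0 and 95.9 CPM at MII.

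Last, 8 RNAs that are known to be degraded by NMD were read in the same fits. In edgeR 0 were called in cKO oocytes at polyA GV (5 at an unadjusted p under 0.05, 1 by DESeq2 and 2 by the limma block fit, beside 23.9%, 14.2% and 20.1% of all genes), 4 were called higher at GV3h and 3 at polyA MII, and 0 were called lower. Of all genes, 12.5% were called higher at GV3h and 11.9% at polyA MII. The median changes of the 8 were 1.10, 1.44 and 1.71 at polyA GV, GV3h and MII, beside 0.08, 0.07 and 0.12 for all genes. In RiboMinus libraries edgeR called 0 at GV (1 at an unadjusted p under 0.05, 0 by DESeq2 and by the limma block fit) and 0 at MII (2 at an unadjusted p under 0.05, beside 27.4% of all genes, and 1 by each of the others), with medians of 0.32 and 0.21, beside 0.04 and 0.25 for all genes. Of the 4 at GV3h, Gadd45a and Zfas1 were below the minimum level for naming and are named here with their values seen; the other two were Gas5 and Snhg1. Gas5, a noncoding host of small nucleolar RNAs, was 34.8 ± 2.58 CPM (SD, n = 3 females) in GV3h cKO oocytes and 12.6 ± 1.44 CPM (n = 3) in controls. Its changes were 1.39 ± 0.25 at GV3h and 1.46 ± 0.25 at polyA MII (adjusted p = 0.00105 and 0.0011). Snhg1, another such host, changed by 1.59 ± 0.44 and 2.34 ± 0.48 (adjusted p = 0.0154 and 0.00362). In RiboMinus libraries neither passed, with values at GV and MII of 0.60 and −0.96 for Gas5 and 0.96 and 0.69 for Snhg1.

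Atf4, a stress transcription factor whose RNA carries upstream reading frames, was 175 ± 52.9 CPM (SD, n = 3 females) in polyA MII cKO eggs and 43.6 ± 4.09 CPM (n = 3) in controls. Every cKO egg, from 113 CPM up, was above every control egg, at most 71.3 CPM, and the change was 1.95 ± 0.20 (adjusted p = 1.91e-05). Its genotype change passed in no other comparison, and at RiboMinus MII it was −0.74 (adjusted p = 0.0949). Between GV and MII, polyA Atf4 fell by −2.43 ± 0.21 in controls (adjusted p = 1.86e-07) and by −0.68 ± 0.21 in cKO oocytes (adjusted p = 0.0139), and the interaction of 1.74 ± 0.30 passed (adjusted p = 0.00898). In RiboMinus libraries its control level was 190.5 CPM at GV and 378 CPM in the MII control female, and the difference between library types in controls was −3.24 ± 0.34 (adjusted p = 5.24e-07). Snhg1 fell in polyA by −2.49 ± 0.51 in controls and −1.49 ± 0.47 in cKO oocytes (adjusted p = 0.000846 and 0.0171), and Gas5 rose by 1.03 ± 0.28 in cKO oocytes (adjusted p = 0.00683). The differences between library types were −3.51 ± 0.75 in controls and −2.24 ± 0.67 in cKO oocytes for Snhg1 (adjusted p = 0.0014 and 0.02) and 1.47 ± 0.47 in cKO oocytes for Gas5 (adjusted p = 0.0308). Decay itself was not measured.

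**Figure D5:**
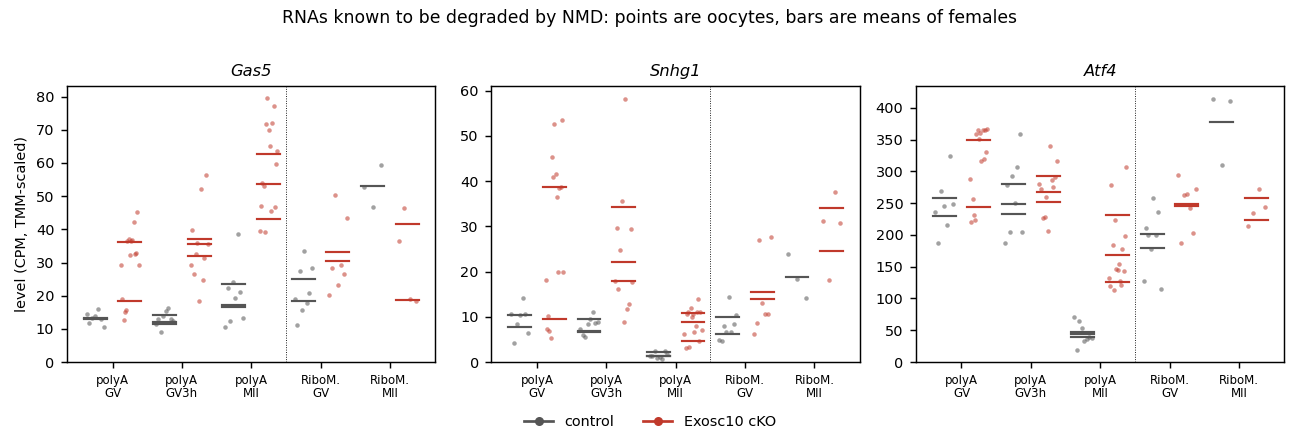
Level (CPM) of Gas5, Snhg1 and Atf4 in every oocyte (points) with the mean of each female (bars), control in grey and cKO in red. Atf4 in polyA MII controls is at most 71.3 CPM, under every polyA MII cKO egg.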

How the data were processed

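The authors deposited raw counts per Ensembl gene for each single-oocyte library. The submitters' processing notes name cutadapt 2.5, FastQC 0.11.8, STAR 2.7.2a, SAMtools 1.9, HTSeq 0.9.1, R 3.5.1, DESeq2 1.24.0 and mm10; the annotation release, strand setting and duplicate removal are not given in the sources used here. The 5 summary lines of each file were left out of library sizes: reads in no gene came to between 5.86% and 14.2%, and ambiguous reads to between 2.07% and 3.19%, of all counts listed in a file. The 22 rRNA files were not used here. Symbols were paired for 55394 of 55573 identifiers.

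Counts were summed per female and fitted in edgeR 4.0.16 (R 4.3.3): TMM, filterByExpr, glmQLFit and glmQLFTest, two-sided, with all groups of a library type in 1 model (polyA: 16 females, 6 groups, 19242 genes tested; RiboMinus: 7 females, 4 groups, 25425 genes, 3 residual degrees of freedom). The tests of library type used all 23 females. p-values were adjusted by Benjamini-Hochberg over all genes tested, with a threshold of 0.05. The fits were run on simulated counts for the genotype comparisons at polyA GV, GV3h and RiboMinus GV and for polyA GV to MII in controls. The outcome is not reported here. The other comparisons, among them those with RiboMinus MII oocytes and the interactions, were not simulated. Nothing in the labels places females in separate litters or batches, so p-values measure the spread between these females. CPM per kb used the transcript with the longest coding sequence. Alternatives were oocytes as replicates, oocytes in limma 3.58.1 (voom, each female a random block), the compared groups alone, DESeq2 1.42.0, 2 other scalings, 2 other filters on low counts, and leaving out each female. Leaving out oocyte V1166_1 was added after seeing the data. The limma fit took 1 within-female correlation for all genes, 0.196 in RiboMinus libraries. It therefore counts the oocytes of the lone RiboMinus MII control female as partly independent.

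The 9 factors, the 31 further pathway genes and the 8 NMD-sensitive RNAs were chosen with earlier results of these data known. Ddit3 was left out because its symbol falls on 2 identifiers. Named pathway genes were the 2 called genes with the largest rise and the 2 with the largest fall in each genotype comparison and in each control MII minus GV comparison, and of the NMD-sensitive RNAs every called one, all with an average log2 CPM of at least 3. The gene most like each factor was the one with the highest Pearson r of log2 CPM (prior count 1) under the same minimum.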

Additional observations from a re-analysis of the deposited data

Results flagged for a closer look

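In 7 of 54 sets of 4 to 10 oocytes of 1 factor in 1 group, the highest oocyte lay far from the rest by Dixon's test, which chance alone does in about 1 in 20 sets. All 7 were control oocytes, but the polyA cKO groups, with more than 10 oocytes each, were not tested. Upf3a was 13.2 CPM in polyA GV oocyte V889_1 (the others 6.79 to 9.27 CPM) and 13.4 CPM in polyA MII egg V896_1 (3.80 to 7.71 CPM). Smg9 was 16.2 CPM in polyA GV oocyte V856_4 (7.53 to 10.1 CPM) and 5.58 CPM in polyA MII egg V896_2 (0.14 to 1.92 CPM). Smg5 was 12.4 CPM in polyA MII egg V853_3 (0 to 5.32 CPM), Upf2 was 81.9 CPM in polyA GV3h oocyte V951_1 (52.6 to 66.1 CPM), and Smg1 was 300.3 CPM in RiboMinus GV oocyte V1132_4 (181 to 234 CPM). The GV to MII change differed between polyA and RiboMinus libraries by the interaction test for Upf1 (2.62) and Smg8 (2.39) in controls, and for Upf1 (1.68), Smg8 (1.52), Upf3b (1.52) and Upf2 (1.02) in cKO oocytes (log2, polyA minus RiboMinus).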

How the results depend on the processing

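Of 135 member values, 28 were called, 13 of them under every alternative run and 15 not under at least 1; 1 called value changed sign under an alternative, where it did not pass: Smg1 from GV to MII in polyA cKO oocytes with library totals (−0.037, adjusted p = 0.872). Sign changes of values not called came to 52 with a female left out, where 1818 values, called or not, were compared. Under each other planned setting they came to 2 to 12, where all 135 values were compared. The cause of these changes was not tested. No paired analysis was possible because each female gave oocytes of 1 stage and 1 genotype. Counts of called factors that moved by over 1.5 times were as follows. At polyA GV (1 called) it was 2 in DESeq2, with library totals, with the stricter filter and in the limma fit with the female as a random block, 5 with oocytes as replicates and 0 with only the groups compared. At GV3h (4) it was 2 with library totals, and at polyA MII (2) it was 4 in DESeq2. At RiboMinus GV (0) it was 1 in DESeq2, with no filter and in the limma fit, and 2 with oocytes as replicates. At RiboMinus MII (3) it was 5 in DESeq2, with oocytes as replicates and in the limma fit, and 1 without oocyte V1166_1. From GV to MII in RiboMinus controls (0) it was 2 in DESeq2, with no filter and in the limma fit, 4 with only the groups compared and 5 with oocytes as replicates, settings that called 27.9% and 30.9% of all genes there, with 1 MII female. In RiboMinus cKO oocytes (0) it was 2 with oocytes as replicates and in the limma fit, and in polyA cKO oocytes (6) it was 3 with library totals. For the RiboMinus interaction of stage and genotype (0) it was 1 in DESeq2, 3 with oocytes as replicates and 2 in the limma fit. Between library types in controls (2) it was 6 with oocytes as replicates, 5 in the limma fit and 4 with the stricter filter. In cKO oocytes (4) it was 2 with only the groups compared and without V1166_1, 7 with oocytes as replicates and 8 in the limma fit. Of all genes, 49.6% in controls and 45.6% in cKO oocytes were called with oocytes as replicates, and 34.2% and 37.7% in the limma fit. With only the groups compared it was 12.2% in cKO oocytes. Leaving out each female in turn gave 0 to 2 at polyA GV, 2 to 4 at GV3h, 2 to 4 at polyA MII, 0 to 1 at RiboMinus GV, 0 to 3 at RiboMinus MII, 0 to 1 for the polyA interaction, and 2 to 4 between library types in each genotype. Over all genes, 1420 were called at polyA GV and 5908 of 14606 with oocytes as replicates, which counts oocytes of 1 female as independent. That setting called 37.6% of all genes at RiboMinus GV and 23.7% at RiboMinus MII. It called 16.1% from GV to MII in RiboMinus cKO oocytes and 14.8% for the RiboMinus interaction. With 2 or 3 females a group, and 1 in RiboMinus MII controls, leaving a female out of a pair leaves a lone female that is assumed to vary like the others. Of the 9 factors, Smg9, at 1.54 and 1.87 CPM in polyA MII eggs of cKO and control females, and Smg5, at 26.6 and 2.55 CPM, had the widest intervals of the polyA GV to MII changes.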
